A study of Mus musculus with 6 samples.

Results

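The expression of 10 genes that mark melanocytes or serve their pigment program was examined in dermal cells that had lost Nelfb, a subunit of the negative elongation factor that acts on RNA polymerase II after it has started a transcript. The genes were Tyr, Tyrp1, Dct, Pmel, Mlana, Slc45a2, Oca2, Mitf, Sox10 and Kit. They were chosen by measured values of these libraries, namely the higher levels of Tyrp1 and Dct without Nelfb, so that the values of the members are a description. No p is given for a member, and where a member is said to be past the threshold of the fit over all genes, this describes its values and supports nothing. Of the 10 genes, 9 were among the 17924 genes of the table and 1, Oca2, was left out.

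Fibroblasts were isolated from the dorsal dermis of newborn (P0) mice on a C57BL/6J background and kept for 14 days in adipocyte differentiation medium before total RNA was sequenced. Nelfb-deleted cells (KO, 3 libraries) came from Nelfb fl/fl Pdgfra-Cre+ mice. The control mice (CTL, 3 libraries) were Pdgfra-Cre+ as well and carried 1 floxed allele (Nelfb fl/wt) or none (Nelfb wt/wt). All mice therefore carried the Cre transgene, the labels do not tie a CTL library to either control genotype, and Cre was driven by the Pdgfra promoter, so that cells that never used it would keep their floxed alleles. The study calls the libraries biological triplicates and does not say whether each came from a separate mouse, so that the spread between them may be in part technical.

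Melanocytes arise from the neural crest and colonize the embryonic skin as unpigmented melanoblasts. They make pigment in melanosomes, organelles in which Tyr, the rate-limiting enzyme that oxidizes tyrosine, acts together with Tyrp1 and Dct, the related enzymes of later steps, on fibrils built of Pmel. Mitf, a basic helix-loop-helix leucine zipper factor, binds E-boxes in the promoters of these genes, Sox10 acts upstream of it, and Kit is the receptor through which stem cell factor keeps melanoblasts alive. Of these genes, several are also used elsewhere: Mitf in macrophages, osteoclasts and mast cells, Kit in mast cells, and Sox10 in Schwann cells.

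The 3 genes of the tyrosinase family, which carry the measured pattern most plainly, have the same 9 letters in their promoters. Promoter windows of 250 bases before to 50 after the transcription start were taken from RefSeq (GRCm38.p6) and were given for 6 members (9 windows). Pmel, Mlana, Slc45a2 and Sox10 were not searched. The M-box core TCATGTGCT, searched on both strands, was in the windows of Tyr, Tyrp1 and Dct, where its first base lay 22, 47 and 151 bases before the start, respectively, and on the strand of the gene each time. It was in 134 of all 32851 windows (0.408%). Each match is shown with its flanks, 5′ to 3′ on the strand of the gene and with the M-box core in capitals, for Tyr at chr7:87493515-87493544 (minus strand), Tyrp1 at chr4:80834156-80834185 (plus strand) and Dct at chr14:118052378-118052407 (minus strand).
Tyr: aaaaagttagTCATGTGCTttgcagaagat
Tyrp1: ggggagggagTCATGTGCTgcctagtagtt
Dct: gcacttagggTCATGTGCTaacaaagagga

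The shorter E-box CATGTG, which lies within the M-box core, was in 14.2% of all windows on either strand, and the symmetric E-box CACGTG was in 7.15%. The Dct window held a further CATGTG on the opposite strand, and the Oca2 window held 1 CATGTG, also on the opposite strand. The 3 Mitf windows and the 2 Kit windows held none of the 3 motifs. The 250 bases before the start are shown for Tyr (chr7:87493513-87493762, minus strand) and Dct (chr14:118052247-118052496, minus strand) to give the place of the motif in the promoter. CATGTG and its reverse complement CACATG are in capitals. A match is a sequence description and says nothing about binding in these cells.
Tyr: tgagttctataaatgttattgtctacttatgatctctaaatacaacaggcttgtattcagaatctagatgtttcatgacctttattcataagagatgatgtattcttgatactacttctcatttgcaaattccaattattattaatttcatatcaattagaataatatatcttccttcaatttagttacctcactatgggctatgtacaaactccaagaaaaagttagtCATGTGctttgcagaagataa
Dct: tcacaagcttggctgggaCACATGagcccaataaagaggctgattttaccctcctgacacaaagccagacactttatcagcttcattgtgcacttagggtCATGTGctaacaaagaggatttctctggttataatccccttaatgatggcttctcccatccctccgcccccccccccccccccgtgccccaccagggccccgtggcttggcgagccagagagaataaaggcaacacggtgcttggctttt

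Values were deposited as counts per 1e+06 reads (CPM), and the CPM worth of 1 read gave depths of 21.4 M to 29.4 M reads in CTL and 17.2 M to 24.5 M reads in KO (M, 1e+06). A value of 3 reads, 0.102 to 0.175 CPM by library, was taken as the floor. Nelfb itself was 17.3, 19.6 and 22.3 CPM in CTL and 5.50, 3.90 and 5.55 in KO. Libraries of a group were not alike: summed fibroblast markers were 19229 CPM in CTL replicate 3 against 5663 and 6255 CPM in the other CTL libraries, and 9814 CPM in KO replicate 1 against 33099 and 35620 CPM in the other KO libraries. Log2 differences are KO minus CTL on log2(reads + 1), with reads taken to a common depth of 22.3 M and with the standard error (SE) of the limma fit over all genes. The threshold was an adjusted p of at most 0.05 and at least a 2-fold difference.

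All 9 measured members passed the filter of 10 reads on average, but 5 of them, Tyr, Tyrp1, Dct, Mlana and Slc45a2, did so through the KO libraries alone. Of the 9, 7 were past the threshold and all 7 were higher in KO, where 11.2% of 16252 genes were past it in either direction and 7.58% were higher. Every KO library was above every CTL library in the same 7 members, against 22.0% of all genes, and no member was below in every KO library, against 16.1%. The remaining 2, Mitf and Kit, overlapped between the groups. The median log2 difference was 4.31 over the 9 members and 0.07 over all genes tested. The former is the value of Mlana, which was 5.11 with 0.5 reads added in place of 1 and 2.41 with 5 reads added. The contrast is the one the members were chosen on, so nothing is read from these counts.

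**Figure D1:**
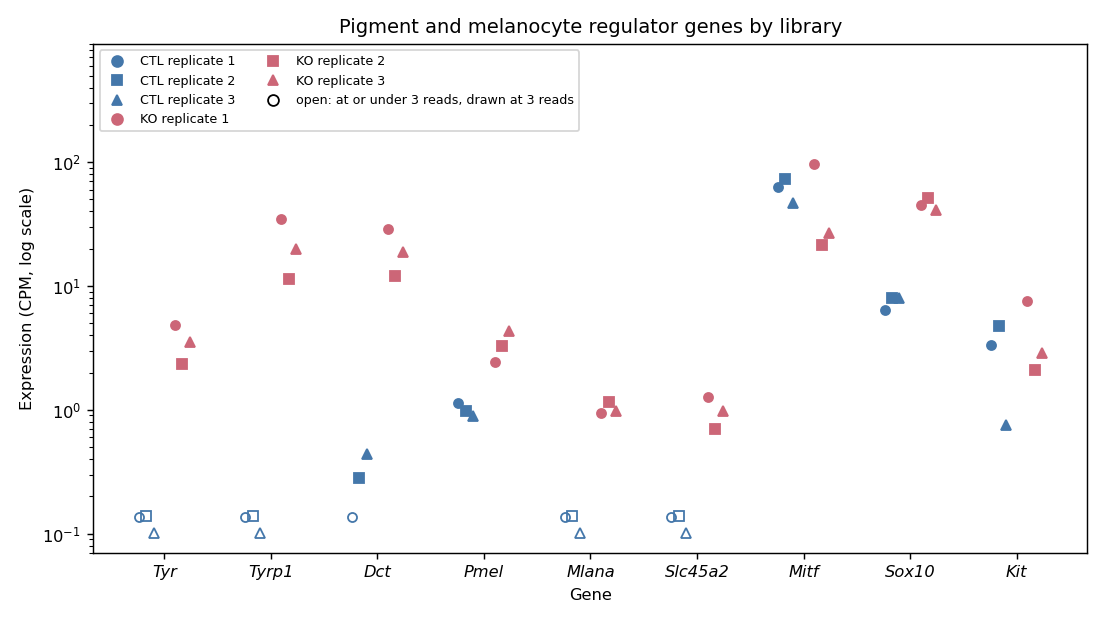
Expression of the 9 measured genes in each library (CPM, log scale), with CTL in blue and KO in red, and marker shapes for replicates 1 to 3. Open symbols are libraries at or under 3 reads and are drawn at 3 reads. Tyr, Tyrp1, Mlana and Slc45a2 were at or under 3 reads in all 3 CTL libraries, while the CTL and KO values of Mitf and Kit overlap.

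Tyrp1, the oxidase that stabilizes Tyr in the melanosome (ENSMUSG00000005994, chr4:80834123-80851719, plus strand), was 0, 0 and 0.0680 CPM in CTL, the last being 2 reads, and 34.9, 11.5 and 20.03 CPM in KO. All CTL libraries were thus under the floor and all KO libraries far above it. In KO, the mean of 22.1 ± 11.9 CPM (SD, n = 3) was at least 176-fold higher than the CTL floor, and the log2 difference was 8.36 (SE 0.57).

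Dct, dopachrome tautomerase and an early marker of melanoblasts (ENSMUSG00000022129, chr14:118012790-118052244, minus strand), had 2, 6 and 13 reads in CTL, or 0.0902, 0.280 and 0.442 CPM, and 28.9, 12.05 and 18.8 CPM in KO. It was the member of the enzyme family with reads in every CTL library, of which 1 was under the floor and 2 were above it. The KO mean of 19.9 ± 8.47 CPM was 73.5-fold that of CTL, 0.271 ± 0.176 CPM, and the log2 difference was 6.08 (SE 0.56). The gene span of 4930435M08Rik, an antisense gene, shares 1891 bases with that of Dct, introns included. Whether these bases are exonic was not examined, and whether reads were counted by strand is not given in the sources used here.

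Tyr (ENSMUSG00000004651, chr7:87424771-87493512, minus strand) had no read in any CTL library and 4.88, 2.33 and 3.55 CPM in KO. These KO values were 103, 40 and 87 reads. The KO mean of 3.59 ± 1.28 CPM was at least 28.5-fold higher than the CTL floor, with a log2 difference of 6.28 (SE 0.44).

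Among the melanosome proteins that are not enzymes, Pmel, the amyloid scaffold on which melanin is laid down (ENSMUSG00000025359, chr10:128704195-128720238, plus strand), was 1.13, 0.980 and 0.884 CPM in CTL and 2.42, 3.26 and 4.37 in KO. It was thus measured in CTL cells well above the floor, and the groups did not overlap. Its mean was 0.998 ± 0.124 CPM in CTL and 3.35 ± 0.977 CPM in KO, a ratio of 3.35, and the log2 difference was 1.67 (SE 0.32). Pmel was no longer past the threshold without CTL replicate 1 (log2 difference 1.76), CTL replicate 2 (1.66), KO replicate 2 (1.67) or KO replicate 3 (1.46). The gene span of Cdk2, at 16.2 to 21.5 CPM over the 6 libraries, shares 837 bases with that of Pmel on the opposite strand. The span of Dgka shares 105. Introns are included in these spans, and whether the shared bases are exonic was not examined.

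Mlana, a small membrane protein of early melanosomes (ENSMUSG00000024806, chr19:29697824-29708634, plus strand), was 0, 0 and 0.0340 CPM in CTL and 0.948, 1.16 and 0.979 in KO. The 3 KO values, 20, 20 and 24 reads, lay close together. The KO mean of 1.03 ± 0.117 CPM was at least 8.19-fold higher than the CTL floor, with a log2 difference of 4.31 (SE 0.48).

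Slc45a2, a transporter of the melanosome membrane that affects its pH (ENSMUSG00000022243, chr15:11000721-11029233, plus strand), had no read in CTL and 1.28, 0.699 and 0.979 CPM in KO, or 27, 12 and 24 reads. The KO mean of 0.986 ± 0.291 CPM was at least 7.84-fold higher than the CTL floor, with a log2 difference of 4.49 (SE 0.48). With so few reads, Mlana fell under the filter of 10 reads on average when any KO library was left out, and Slc45a2 did so without KO replicate 1 or 3. In bulk RNA, a larger number of cells that express a gene and more RNA of it per cell cannot be told apart, and this holds for all the members.

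The transcription factors and the receptor did not move as a group. Sox10 (ENSMUSG00000033006, chr15:79154908-79165240, minus strand) was 6.45, 7.93 and 7.92 CPM in CTL and 45.4, 50.9 and 41.2 in KO. It was measured in all 6 libraries, and its KO libraries lay within 1.24-fold of each other. Its mean was 7.44 ± 0.854 CPM in CTL and 45.8 ± 4.87 CPM in KO, a ratio of 6.16, and the log2 difference was 2.62 (SE 0.16).

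Mitf (ENSMUSG00000035158, chr6:97807052-98021349, plus strand) was 62.8, 72.4 and 47.2 CPM in CTL and 96.3, 21.6 and 26.8 in KO. KO replicate 1 was above all CTL libraries and KO replicates 2 and 3 were below all of them. The means were 60.8 ± 12.8 CPM in CTL and 48.2 ± 41.7 CPM in KO, and the log2 difference of -0.65 (SE 0.55) was not past the threshold. Without KO replicate 1, the log2 difference was -1.31 and past the threshold. The values are sums over the whole gene and do not separate the melanocyte isoform from those that start at other promoters.

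Kit (ENSMUSG00000005672, chr5:75574916-75656722, plus strand) was 3.34, 4.71 and 0.748 CPM in CTL and 7.49, 2.10 and 2.86 in KO. KO replicate 1 was again the highest of the 6 libraries, CTL replicate 3 was the lowest, and the other KO libraries lay between the CTL values. The log2 difference of 0.62 (SE 0.78) was not past the threshold and ranged from -0.15 (without CTL replicate 3) to 1.14 (without CTL replicate 2).

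Per kilobase of exon, which allows levels of different genes to be set side by side, the order of the KO means was Sox10 (15.02 CPM per kb), Tyrp1 (7.83), Mitf (7.78), Dct (3.38), Pmel (1.46), Mlana (0.975), Tyr (0.505), Kit (0.465) and Slc45a2 (0.331). The lowest KO library of Sox10 (13.5 CPM per kb) was above the highest of Tyrp1 (12.4), and the same held for Dct (2.04) over Pmel (1.90) and for Mlana (0.897) over Tyr (0.687). The other neighbours in this order overlapped. In CTL, the order was Mitf (9.81 CPM per kb), Sox10 (2.44), Pmel (0.435), Kit (0.329) and Dct (0.0459), with Mlana (0.0107) and Tyrp1 (0.00802) under the floor and Tyr and Slc45a2 at 0. Mitf thus led the members in CTL cells, where the transcripts of the tyrosinase family were at or near 0.

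The KO libraries differed from each other in the pigment genes. KO replicate 1 was the highest, replicate 3 the next and replicate 2 the lowest for Tyr, Tyrp1, Dct, Slc45a2, Mitf and Kit, an order that 28.2% of all genes tested also had. As a percentage of the KO mean, Tyrp1 was 158% in KO replicate 1, 51.8% in replicate 2 and 90.4% in replicate 3. Sox10 (99.1%, 111% and 89.8%), Mlana (92.0%, 113% and 95.0%) and Pmel (72.2%, 97.4% and 130.4%) did not share this order. Summed macrophage markers were 162%, 51.4% and 86.5% of their KO mean in the same libraries, and summed Schwann cell markers 109%, 99.4% and 92.1%. What sets the order of the libraries was not tested.

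**Figure D2:**
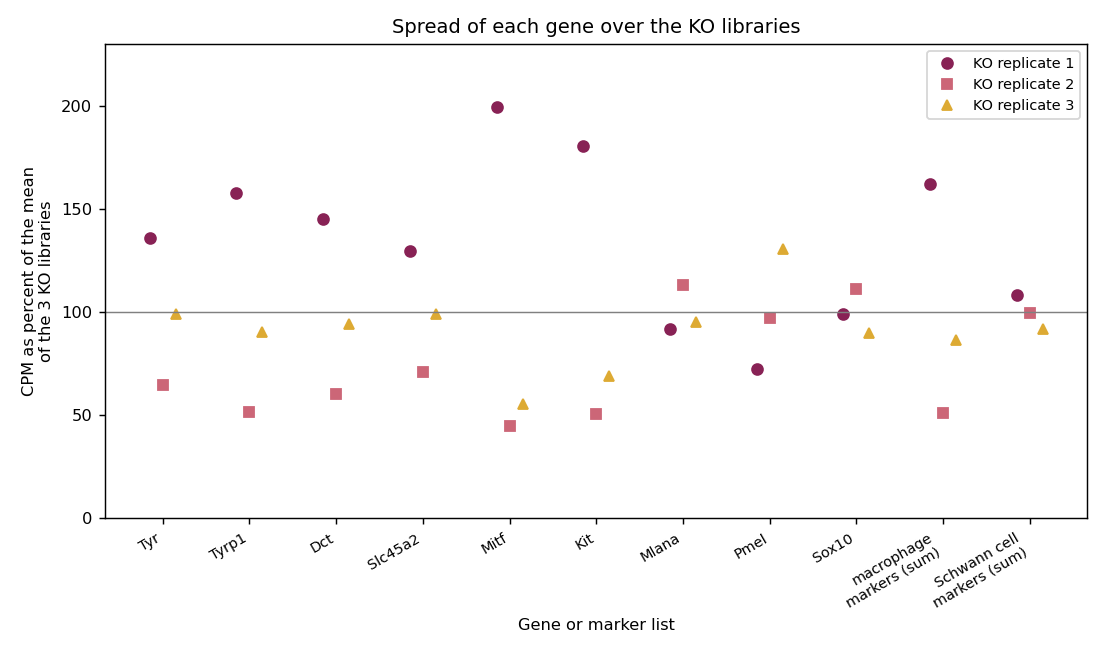
CPM of each measured gene in the 3 KO libraries as a percentage of the mean of these libraries, with the sums of the macrophage and Schwann cell marker lists at the right. The line at 100 is the KO mean. Tyr, Tyrp1, Dct and Slc45a2 have replicate 1 above the line and replicate 2 well below it, whereas Sox10 and Mlana stay between 89.8% and 113%.

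The proportions between genes were followed over the KO libraries. The ratio of Tyrp1 to Dct was 1.21, 0.952 and 1.07 in KO replicates 1 to 3 in CPM, and that of Tyr to Dct was 0.169, 0.193 and 0.189. Tyr to Tyrp1 varied more, at 0.140, 0.203 and 0.177. The ratio of Slc45a2 to Tyr was 0.262, 0.300 and 0.276. The ratio of Tyrp1 to Sox10 was 0.769, 0.225 and 0.487, and that of Tyrp1 to Mitf was 0.363, 0.531 and 0.746. The ratio of Tyrp1 to the summed macrophage markers was 0.00448, 0.00464 and 0.00481, and for the 14 single markers the highest of the 3 ratios was between 1.04-fold and 2.28-fold the lowest. These ratios over 3 libraries are given as a description, and a steady ratio was thus not particular to the enzymes.

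The genes whose pattern over the 6 libraries was the most like that of Tyrp1 were sought by the Euclidean distance of centred log2 values among 16251 genes. The values were not scaled, so the size of the difference between KO and CTL, on which Tyrp1 was chosen, enters the distance. In order of distance these were Clstn2 (1.36), Mup15 (1.54), Mup22 (2.08), Mup17 (2.21), Il1rl1 (2.21), Mup11 (2.26), Mup7 (2.68), Tyr (2.80), Dct (2.95) and Mup19 (2.9999). Tyr and Dct were thus 8th and 9th, and 6 of the 10 were Mup genes, near-identical copies that encode major urinary proteins and whose reads cannot be assigned with certainty. Clstn2, a calsyntenin, was 0.0902, 0.140 and 0.476 CPM in CTL and 53.9, 51.8 and 53.9 in KO. Of the other members, Slc45a2 was at rank 42, Mlana at 63, Sox10 at 504, Pmel at 1229, Kit at 5271 and Mitf at 13948. The points share 6 libraries, and a low rank is no sign of shared control.

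The other genes of pigment biology were taken from 5 lists of 76 genes in all, without the members. Of these, 66 were tested, of which 11 rose and 3 fell (21.2% past the threshold, against 11.2% of all genes) and 52 were not past the threshold. Their median log2 difference was 0.27, against 0.07 over all genes. Adjusted p values below are from limma with the Benjamini-Hochberg method over all genes tested.

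Melanosome proteins and transporters moved in both directions. Of 17 listed genes, 14 were tested, 3 rose and 2 fell, with a median log2 difference of 0.61. Rab32, a small GTPase that brings Tyr and Tyrp1 to melanosomes, was 15.3, 14.7 and 28.5 CPM in CTL and 51.7, 48.0 and 49.5 in KO (log2 difference 1.42, SE 0.27, adjusted p = 0.019). Tpcn2, a cation channel of melanosomes and endolysosomes, rose from 8.01 ± 2.26 to 18.4 ± 3.77 CPM (log2 difference 1.21, SE 0.26, adjusted p = 0.027). Sytl2, a synaptotagmin-like partner of Rab27a, rose from 2.02 ± 0.592 to 6.42 ± 1.44 CPM (log2 difference 1.66, SE 0.31, adjusted p = 0.018). Of the genes of melanosome transport, Rab27a and Myrip fell. Rab27a, the GTPase that ties mature melanosomes to actin, was 3.97, 2.89 and 3.64 CPM in CTL and 0.996, 1.28 and 1.59 in KO (log2 difference -1.42, SE 0.29, adjusted p = 0.025). Myrip, a Rab27a effector, was 13.3, 11.2 and 2.24 CPM in CTL and 0.427, 0.175 and 0.408 in KO (log2 difference -4.28, SE 0.74, adjusted p = 0.014). Myo5a and Mlph, which form the transport complex with Rab27a, were not past the threshold, with log2 differences of 0.65 (SE 0.59, adjusted p = 0.49) and -0.37 (SE 0.25, adjusted p = 0.36). The same was true of Gpnmb, a melanosome glycoprotein that macrophages also make in large amounts (0.91, SE 0.85, adjusted p = 0.50).

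Slc24a5, an exchanger of the melanosome pathway, was under the filter at 0, 0.0467 and 0 CPM in CTL and 0.491, 0.307 and 0.965 in KO. Mc1r, the melanocortin receptor, was likewise under the filter, at 0, 0.0467 and 0 CPM in CTL and 0.711, 0.142 and 0.245 in KO. Each CTL library thus held at most 1 read of these genes. For neither was a test made, and 1 KO library of Mc1r was also under the floor.

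The 21 genes of the sorting complexes that deliver cargo to melanosomes and other lysosome-related organelles (BLOC, HPS and AP-3 subunits, with Vps33a, Lyst and the Rab prenyltransferase subunit Rabggta) were all tested, and 0 passed the limma threshold. At an unadjusted p under 0.05 there were 3, Rabggta and Vps33a higher and Ap3s1 lower. Their log2 differences ranged from -0.51 to 0.61 with a median of 0.09. The products serve many cell types, and the summed level of the genes was 927 to 952 CPM in CTL and 882 to 1053 CPM in KO.

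Of 14 transcription factors of the melanocyte lineage, all were tested, 5 rose and 1 fell, with a median log2 difference of 0.9997. Pax3, which acts with Sox10 on the Mitf promoter, was 0.271, 0.233 and 0.102 CPM in CTL and 2.04, 1.34 and 0.898 in KO (log2 difference 2.57, SE 0.50, adjusted p = 0.020). Foxd3, a neural crest factor that is kept in glial precursors and represses Mitf, rose from 3.71 ± 0.931 to 21.4 ± 3.25 CPM (log2 difference 2.53, SE 0.24, adjusted p = 0.0040). Tfap2a and Tfap2b, AP-2 factors of the neural crest and the epidermis, rose by 2.07 (SE 0.27, adjusted p = 0.0075) and 2.34 (SE 0.30, adjusted p = 0.0074) on the log2 scale. Both were measured in CTL, at 1.12 ± 0.153 and 0.610 ± 0.0994 CPM, respectively.

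Tfec, the relative of Mitf that is best known from macrophages, was 1.35, 0.653 and 0.238 CPM in CTL and 16.1, 5.01 and 8.61 in KO (log2 difference 3.77, SE 0.68, adjusted p = 0.017). Its KO libraries had the order of the enzymes and of the macrophage markers, with replicate 1 the highest. The other relatives of Mitf, Tfe3 and Tfeb, were not past the threshold (log2 differences -0.07, SE 0.18, adjusted p = 0.82, and 0.10, SE 0.25, adjusted p = 0.81). Sox5, which counters Sox10 at melanocyte promoters, fell from 14.3 ± 2.09 to 4.69 ± 1.16 CPM (log2 difference -1.62, SE 0.24, adjusted p = 0.010). Zeb2 had an adjusted p of 0.016 by limma but a log2 difference of 0.77, under 2-fold.

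Of 17 ligands and receptors, 10 were tested, 3 rose and 0 fell by limma (1, Edn1, was lower at an unadjusted p under 0.05), with a median log2 difference of 0.74. Erbb3, a neuregulin receptor of neural crest cells and their glial progeny, was 4.60, 3.31 and 5.44 CPM in CTL and 27.1, 31.5 and 29.3 in KO (log2 difference 2.73, SE 0.22, adjusted p = 0.0033). Its ligand Nrg1 rose from 1.86 ± 0.315 to 7.08 ± 2.50 CPM (log2 difference 1.85, SE 0.34, adjusted p = 0.017). Hgf, a growth factor for melanocytes that mesenchymal cells secrete, rose from 1.35 ± 0.533 to 8.93 ± 3.43 CPM (log2 difference 2.67, SE 0.44, adjusted p = 0.013). Kitl, the ligand of Kit, was 198, 311 and 136 CPM in CTL and 759.9, 301 and 269.7 in KO, and was not past the threshold (log2 difference 0.96, SE 0.47, adjusted p = 0.21). Ednrb, the endothelin receptor of melanoblasts, was 16.0, 26.0 and 24.5 CPM in CTL and 66.2, 29.4 and 43.9 in KO, without overlap but also not past the threshold (log2 difference 1.02, SE 0.34, adjusted p = 0.087).

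Of 16 other genes known as Mitf targets in melanocytes or osteoclasts, 9 are also on the lists above. The members, among them Tyr, Tyrp1 and Dct, were left out of this list. Trpm1 and Gpr143 were not measured, and Slc24a5 and Mc1r were under the filter and not tested. Of the 16, 12 were tested, 0 rose by the limma threshold (2, Hif1a and Ednrb, were higher at an unadjusted p under 0.05, and Hif1a, with a log2 difference of 0.61 and an adjusted p of 0.041, missed only the 2-fold difference) and 1, Rab27a, already counted above, fell. Their median log2 difference was 0.18. Leaving out 1 library changed the calls of the 14 genes past the threshold: 7 were lost without CTL replicate 1, 8 without CTL replicate 2, 8 without KO replicate 2 and 10 without KO replicate 3. Erbb3, Foxd3, Tfap2a and Tfap2b were past the threshold each time, whereas Pax3, Rab27a, Rab32, Tpcn2, Myrip and Nrg1 were lost whichever of these 4 libraries was left out.

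**Figure D3:**
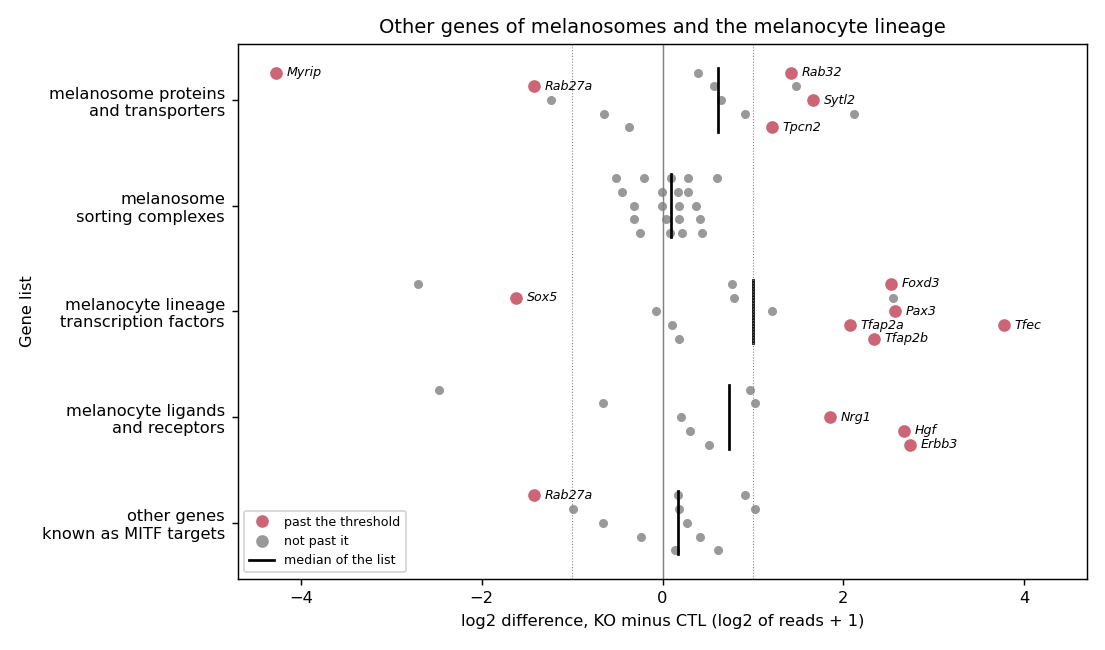
Log2 differences (KO minus CTL, log2 of reads + 1) of the tested genes of 5 lists of pigment biology, without the members. Red points passed the limma threshold, grey points did not, black bars are medians of the lists, and dotted lines mark 2-fold. The 21 sorting complex genes stay between -0.51 and 0.61, while the 5 lineage factors in red at the right reach up to 3.77 (Tfec).

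The levels of markers of other cell types that use some of these genes are given beside them. For Sox10, whose other main site is the Schwann cell, 11 of 14 listed Schwann cell markers were measured and summed to 240.4 to 517 CPM in CTL and 694 to 818 CPM in KO. Of the 11, 5 rose (Cdh19, Erbb3, Ngfr, Foxd3 and Gap43) and 1, Mbp, fell. Ngfr, a receptor of immature Schwann cells and neural crest cells, was 25.6, 32.2 and 57.8 CPM in CTL and 276, 264 and 197 in KO (log2 difference 2.74, SE 0.32, adjusted p = 0.0057 by limma). Mbp, a myelin protein, was 29.1, 39.2 and 25.4 CPM in CTL and 19.4, 11.4 and 10.04 in KO (log2 difference -1.23, SE 0.30, adjusted p = 0.038 by limma). Gfap, Mag and Ncmap were not analysed here. Erbb3 and Foxd3 are on both the Schwann cell and the melanocyte lists.

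For Mitf, whose other sites include macrophages, all 14 macrophage markers were measured, and 13 rose (all but Cd68), with summed levels of 259.95 to 914 CPM in CTL and 2472 to 7803 CPM in KO. For Kit, the mast cell markers were close to 0: of 10 listed, 5 were measured and summed to 0.327 to 1.29 CPM in CTL and 2.04 to 5.31 CPM in KO, and without Gata2 the groups overlapped. Tpsb2, a mast cell tryptase, was at 1.80 CPM in KO replicate 1, the library in which Kit was highest, and had 0 reads in the other KO libraries. Cpa3 was 0.569, 0.116 and 0.163 CPM in KO, with replicate 2 under the floor. Gata2, the 1 mast cell marker tested, rose from 0.376 ± 0.180 to 1.74 ± 0.104 CPM (log2 difference 2.17, SE 0.41, adjusted p = 0.018 by limma).

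Keratinocyte markers, 6 of 9 measured, summed to 2.79 to 3.45 CPM in CTL and 7.11 to 15.1 CPM in KO, with Krt14 past the threshold among the 4 tested. Endothelial markers summed to 145 to 177 CPM in CTL and 117.5 to 151 CPM in KO, and of 8 tested, 1 (Emcn) rose. Most of this sum was Flt1, and the other 9 markers summed to 11.2 to 16.96 CPM in CTL and 19.0 to 28.8 CPM in KO. Of the cells the culture was meant to hold, fibroblast markers summed to 5663 to 19229 CPM in CTL and 9814 to 35620 CPM in KO, with 0 of 10 past the limma threshold and 4 at an unadjusted p under 0.05. Adipocyte markers summed to 22807 to 38034 CPM in CTL and 14796 to 23113 CPM in KO, with Lep up and Retn down of 10 by the limma threshold. At an unadjusted p under 0.05, 5 of them were lower (Adipoq, Plin1, Pparg, Retn and Cfd) and 1, Lep, was higher. Their median log2 difference was -0.77. The share of these cells in the values of the pigment genes was not tested.

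**Figure D4:**
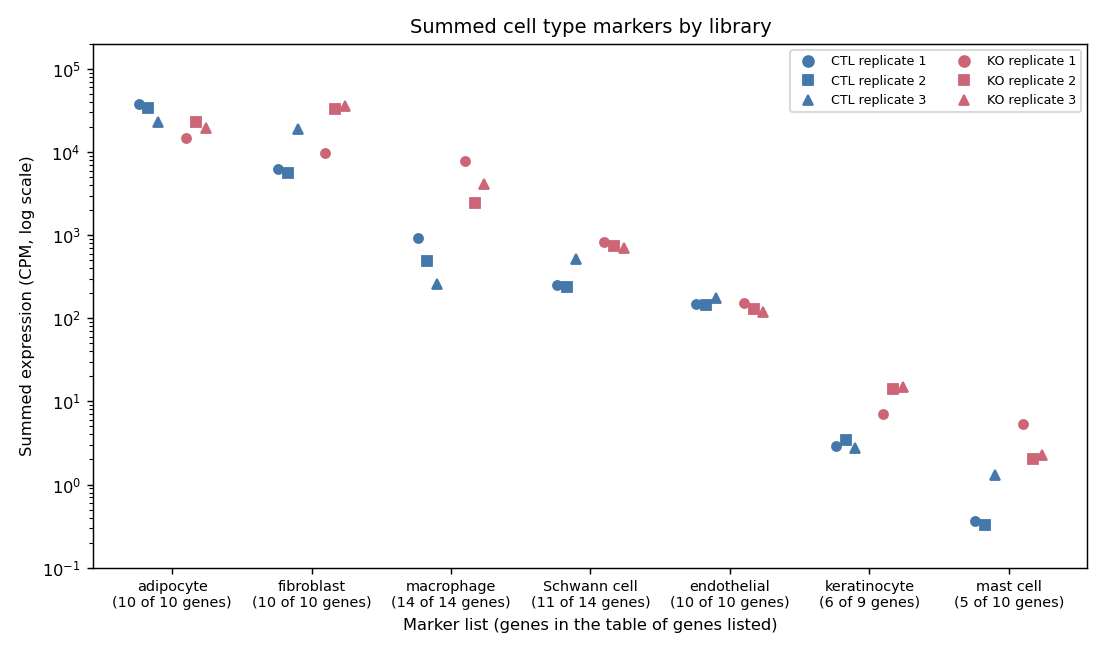
Summed CPM (log scale) of the measured markers of 7 cell types in each library, with CTL in blue, KO in red and marker shapes for replicates 1 to 3. The macrophage, Schwann cell, keratinocyte and mast cell sums of all KO libraries lie above those of all CTL libraries, mast cell markers reach at most 5.31 CPM, and the adipocyte and fibroblast sums overlap between the groups.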

How the data were processed

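Per the labels and the study, total RNA of 3 CTL and 3 KO cultures was sequenced, and reads were aligned to mm10. The submitters' processing notes name STAR 2.7 and Partek 9.0.20.0202. The counting tool and the use of strand are not given in the sources used here. The authors deposited 1 table of CPM values, each carrying an offset of 0.0001 and scaled to the library total alone. The offset was subtracted and the step between low values was read as 1 read. Only 69.4% to 72.1% of values up to 20 reads were whole to within 0.02 reads, so no count test was made. Values were taken to reads at 22.3 M. The 16252 of 17924 genes that averaged 10 reads or more were fitted with limma (3.58.1, R 4.3.3) on log2(reads + 1), with an abundance trend and no covariate, and adjusted by Benjamini-Hochberg. The script was tested on simulated data. Depth limits genes near 3 reads, and this covers counting error only.

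The members and lists were chosen with earlier results of these data known, and some genes of the Schwann cell list are not reported here. Attractin was listed under a symbol that matches no mouse gene (Attrn) and was not analysed here. Named were all members, every pigment, sorting, lineage and signalling gene past the threshold, marker genes at or under 3 reads with the summed level of each marker list, and the 10 genes nearest to Tyrp1. Other genes were named after their values were seen: Rabggta, Vps33a, Ap3s1, Edn1, Hif1a, Gpnmb, Myo5a, Mlph, Tfe3, Tfeb, Zeb2, Kitl, Ednrb, Slc24a5, Mc1r, Cpa3, Flt1 and the markers of other cell types that are named by their change. Positions and IDs are those of GENCODE vM21 (GRCm38), where 99.0% of 17520 genes matched by name had the position in the table. Alternatives were the pseudocount, the filter, median of ratios scaling, no abundance trend, a replicate block and leaving out each library. Sums, ratios and figures used Python 3.11.15, pandas 2.3.3, numpy 2.4.6 and matplotlib 3.10.9.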

Additional observations from a re-analysis of the deposited data

How the results depend on the processing

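The 7 members past the threshold were past it under each of the 7 alternatives that kept all libraries (pseudocounts of 0.5 and 5 reads, 2 other filters, median of ratios scaling, no abundance trend and the replicate block). The choice of members on this contrast, and a filter that Tyr, Tyrp1, Dct, Mlana and Slc45a2 passed through KO alone, largely fix this count, so it is no sign of stability. When each library in turn was left out, 4 to 7 members were past the threshold, 4 of them without KO replicate 3. The listed pigment and lineage genes past it numbered 4 to 17 and the calls over all genes 426 to 2479. Of these, 871 calls were made without CTL replicate 1, 758 without CTL replicate 2, 945 without KO replicate 2 and 426 without KO replicate 3, against 1824 with all libraries. Without CTL replicate 3 there were 2479 and without KO replicate 1 there were 1955. The cause was not tested. The replicate block gave 2175 calls over all genes, 7 members and 17 listed genes. Deviations from the group means of libraries with the same number had correlations of 0.52, -0.39 and 0.52. Being few and of mixed sign, these values do not decide whether the numbers pair the libraries.

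The 14 listed genes past the threshold kept their direction in all 182 single-gene comparisons with an alternative and were not past it in 33. Of 112 such comparisons of members, 4 (Pmel) were no longer past it, 1 (Mitf) became so, and 1 (Kit) changed sign, all with a library left out. The fitted log2 differences of genes near 0 in CTL depend on the pseudocount: Tyr was 7.27 at 0.5 reads and 4.03 at 5 reads, Mlana 5.11 and 2.41, Slc45a2 5.45 and 2.41, and Tyrp1 6.37 at 5 reads. Depth limits Mlana, Slc45a2, Slc24a5 and Mc1r, which have few reads in any library.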
